A study of Mus musculus with 4 samples.

Results

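The plexins are the cell surface receptors of the semaphorin guidance proteins. They were described in sorted cells of the embryonic preoptic area (POA) with and without *Dnmt1*, the maintenance DNA methyltransferase. The paper calls these cells interneurons, but the libraries also held transcripts of glial marker genes. All 9 mouse plexin genes were taken by symbol, *Plxna1* to *Plxna4*, *Plxnb1* to *Plxnb3*, *Plxnc1* and *Plxnd1*, and all 9 were found among the 55573 gene identifiers of the count lists. RNA came from tdTomato-positive cells sorted by fluorescence from dissociated basal telencephalon of mouse embryos at E16. The WT group carried the *Hmx3-Cre* driver and the tdTomato reporter with wild-type *Dnmt1*, and the KO group carried the same driver and reporter with *Dnmt1 loxP2* alleles, so that Cre was active in both groups and the deletion was limited to cells that had expressed *Hmx3*. Each group had 2 libraries, from cells pooled over 12 WT embryos and over 6 KO embryos. The GEO entry calls the libraries biological replicates whereas the paper calls them technical duplicates, so SDs and p-values here measure the spread between libraries, which may be technical.

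A plexin carries an extracellular sema domain that binds semaphorins and an intracellular GTPase-activating domain that acts on Rap and Ras proteins. The receptors of class A bind secreted class 3 semaphorins together with neuropilins and bind transmembrane class 6 semaphorins directly, whereas class B receptors bind mainly class 4 semaphorins and couple to guanine nucleotide exchange factors. In the developing forebrain these receptors are known for steering axons and migrating interneurons, which avoid regions rich in semaphorins.

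Of the 9 plexins, 1 rose in KO cells past the adjusted threshold, beside 7.33% of all tested genes called higher and 0.57% called lower by edgeR. *Plxnb3* was higher 3.46-fold (95% interval 2.57 to 4.66, n = 2 and 2), whereas the other 8 plexins did not pass. *Plxnb1* was higher and *Plxna4* lower in both KO libraries than in both WT libraries, and whether either passed depended on the test. Class A plexins held 52.6% ± 0.203 (SD, n = 2) of the plexin transcripts in WT and 46.1% ± 0.181 (SD, n = 2) in KO, and class B plexins held 28.98% ± 1.43 and 37.1% ± 0.849. Cell type markers moved in the same libraries. The summed level of 10 astrocyte markers was 31.1 and 35.02 RPKM (reads scaled to exon length and library size) in WT and 502 and 485 RPKM in KO, that of 10 mature oligodendrocyte markers 31.5 and 36.6 against 130 and 124 RPKM, and that of 10 neuronal markers 1237 and 1395 against 931 and 947 RPKM. Their part in the plexin values was not tested, and in bulk libraries fewer cells of a type and less RNA per cell cannot be told apart.

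The libraries held between 8075102 and 9995968 counts, so that 3 counts amount to between 0.294 and 0.372 CPM, the count scaled to the TMM-adjusted library size, a floor that covers counting error only. The 95% intervals of fold changes come from the edgeR fit and include the spread between libraries. The library of WT replicate 1 stood apart, with 8.66% of its counts on mitochondrial rRNA against 1.51% to 2.32% in the others. The targeted gene *Dnmt1* stood at -0.56 on the log2 scale in KO relative to WT (edgeR adjusted p = 0.0511), with 3103 and 4557 against 2383 and 2552 counts. The floxed part covers a pair of exons near the start of the gene, so most of these reads lie outside it and their number does not check the deletion. The log2 fold change had a median of -0.03 over the 16832 genes that passed the expression filter, all 9 plexins among them. The neuronal and GABAergic markers of highest level were present in both groups, *Tubb3* at 882 RPKM in WT and 637 RPKM in KO and *Dlx1* at 124 RPKM and 107 RPKM as group means (RPKM, the CPM per kilobase of merged exons). The log2 fold change was negative for 9 of 10 neuronal and all 7 GABAergic markers tested, whereas it was above 0 for 8019 of the 16832 tested genes.

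The promoter windows of *Plxnb3*, the plexin called higher in KO, and of *Plxnb1*, which did not pass the edgeR test (adjusted p = 0.0917), are shown because CpG dinucleotides are the sites that DNMT1 methylates. They come from RefSeq (GRCm38.p6), run 5′ to 3′ on the plus strand, end at the base before the GENCODE start of the gene and have each CpG in capitals. They cover chr9:109095186-109095388 for *Plxnb1* and chrX:73756853-73757089 for *Plxnb3*.
Plxnb1: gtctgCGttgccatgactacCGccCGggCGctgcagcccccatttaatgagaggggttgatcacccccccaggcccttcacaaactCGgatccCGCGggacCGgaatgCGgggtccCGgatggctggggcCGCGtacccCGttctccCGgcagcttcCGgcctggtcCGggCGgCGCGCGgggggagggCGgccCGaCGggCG
Plxnb3: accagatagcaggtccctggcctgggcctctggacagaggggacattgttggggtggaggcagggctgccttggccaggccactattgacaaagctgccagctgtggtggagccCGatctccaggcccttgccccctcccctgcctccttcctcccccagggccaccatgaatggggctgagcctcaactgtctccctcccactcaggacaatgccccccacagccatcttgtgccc
The *Plxnb1* stretch holds 24 CpG in 203 bases and the *Plxnb3* stretch 1 CpG in 237 bases. RefSeq windows, which reach from 250 bases before to 50 bases after a transcript start, were found for 7 of the 9 plexins, with 8 windows in all and none for *Plxna1* and *Plxna4*. The dinucleotide CG, which reads the same on both strands, occurred 36 times in the whole *Plxnb1* window, more often than in any other plexin window. The count was 30 for *Plxnc1*, 27 and 15 for the 2 windows of *Plxnb2*, 25 for *Plxna2*, 23 for *Plxnd1* and 18 for *Plxna3*. *Plxnb3* had 4 CpG and was the only plexin with a window that lay below the median of 7 over 32851 mouse promoter windows. Of all windows, 38.04% held at most 4 CpG, 34.64% held at least 15 and 94.57% held at least 1. DNA methylation was not analysed here, and starts of other transcripts of these genes lie outside the windows.

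Levels per length placed the plexins in 2 tiers. In WT, 7 plexins lay between 27.3 and 50.8 RPKM as group means, whereas *Plxnd1* and *Plxnb3* lay at 3.93 ± 0.746 and 2.61 ± 0.365 RPKM (SD, n = 2). The order in WT ran from *Plxna3* (50.8 ± 3.64 RPKM) and *Plxnc1* (50.4 ± 2.01) over *Plxnb2* (42.5 ± 6.06), *Plxnb1* (40.4 ± 1.498), *Plxna1* (40.0 ± 3.55) and *Plxna2* (36.9 ± 0.190) to *Plxna4* (27.3 ± 0.871). Neighbours whose libraries overlapped in this order were *Plxna3* and *Plxnc1*, *Plxnb2* and *Plxnb1*, and *Plxnb1* and *Plxna1*, so the data do not order them. In KO, *Plxnb1* stood first at 55.6 ± 4.32 RPKM, with both libraries above every other plexin. Behind it, the libraries of *Plxna3*, *Plxnc1*, *Plxnb2* and *Plxna1* overlapped from neighbour to neighbour, between 43.3 ± 3.95 and 36.3 ± 2.52 RPKM. The lower end of the KO order was *Plxna2* at 30.8 ± 3.05, *Plxna4* at 19.4 ± 0.590, *Plxnb3* at 9.07 ± 0.992 and *Plxnd1* at 4.08 ± 0.154 RPKM, and the libraries of these 4 did not overlap. *Plxnb3* and *Plxnd1* therefore changed places at the bottom of the order. Among all tested genes, 39.16% had a lower level than *Plxnb3* in WT and 68.46% in KO. With 2 libraries per group an exact permutation test cannot give a two-sided p below 0.333, and the order was not tested.

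**Figure D1:**
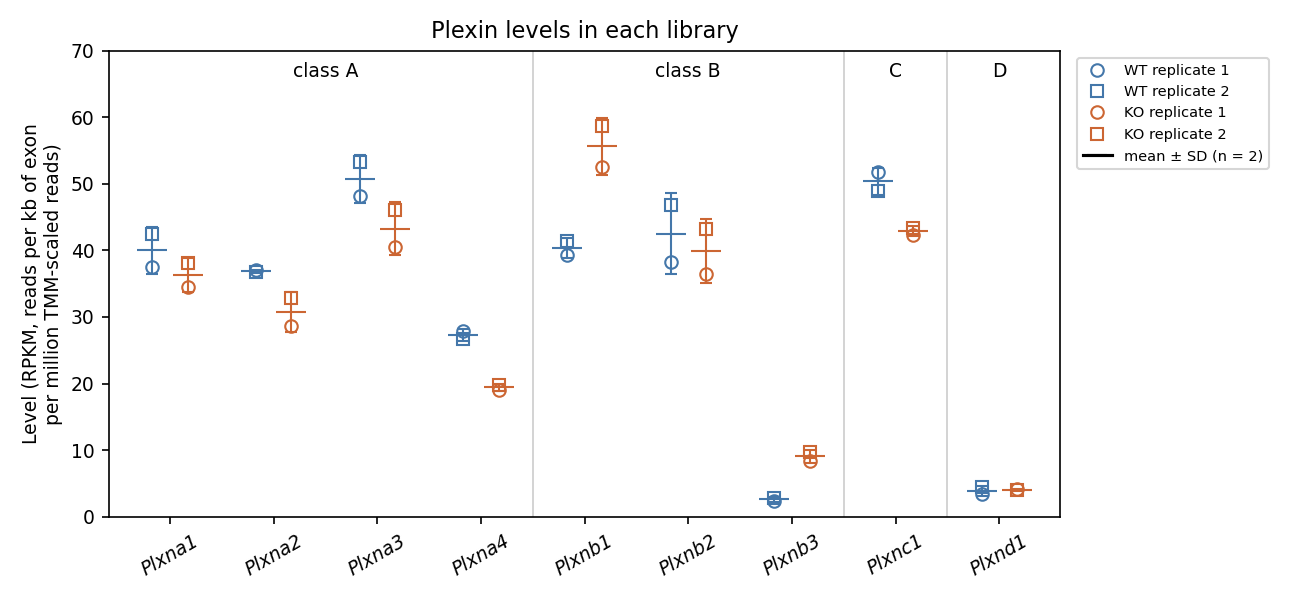
Level of each plexin in RPKM (vertical axis, linear) in the 2 WT and 2 KO libraries, with horizontal bars for group means and error bars for the SD (n = 2). *Plxnb1* and *Plxnb3* lie higher in both KO libraries than in both WT libraries, and *Plxna2*, *Plxna3*, *Plxna4* and *Plxnc1* lie lower.

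Of the class B receptors, *Plxnb3* passed the test and *Plxnb1* and *Plxnb2* did not. *Plxnb3* (chromosome X, 73757090 to 73772514, plus strand, GRCm38) encodes a receptor of SEMA5A that is known from cells of the oligodendrocyte lineage. It was counted 123 and 190 times in WT against 457 and 576 times in KO. Both KO libraries lay far above both WT libraries. Its level rose from 16.9 ± 2.37 to 58.9 ± 6.44 CPM (SD, n = 2), by 1.79 on the log2 scale (standard error 0.19, 95% interval 1.36 to 2.22, edgeR adjusted p = 0.000643). *Plxnb3* passed the threshold under all 11 alternatives that kept the 4 libraries, with log2 fold changes from 1.67 to 1.90, and also without each library in turn, from 1.66 to 1.95. It was the 1 of 9 plexins called higher by edgeR, beside 7.33% of all tested genes, and no plexin was called lower, beside 0.57%. At an unadjusted p under 0.05 there were 3 plexins, *Plxnb3*, *Plxnb1* and *Plxna4*, beside 3813 genes in all (22.7%). DESeq2 called 2 plexins higher and 1 lower, beside 5.84% and 1.25% of the genes it tested.

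*Plxnb1* (chromosome 9, 109095389 to 109119917, plus strand), the receptor of SEMA4D, had 3037 and 4055 counts in WT against 4243 and 5112 in KO. The KO libraries were the highest, and the lower of them was above the higher WT library by a small margin in raw counts. On the depth-scaled measure the level was 387 ± 14.4 CPM in WT and 534 ± 41.4 CPM in KO (SD, n = 2). The difference of 0.46 on the log2 scale (standard error 0.14, 95% interval 0.14 to 0.78) did not pass the edgeR test (adjusted p = 0.0917). *Plxnb1* passed with DESeq2 (log2 fold change 0.45, adjusted p = 0.0422) and with 2 of the other alternatives, and over all 11 the log2 fold change lay between 0.28 and 0.57. An antisense gene, *Gm7628*, overlaps 2.68% of its exonic bases.

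*Plxnb2* (chromosome 15), a receptor of SEMA4C and SEMA4D with roles in neural progenitors, had 2377 and 3687 counts in WT against 2368 and 3033 in KO. The groups overlapped, and the WT libraries were themselves far apart. The log2 fold change was -0.09 (95% interval -0.46 to 0.28, edgeR adjusted p = 0.780), and its sign turned to positive when libraries were scaled by their totals alone, at 0.0084.

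The 4 class A receptors all had negative log2 fold changes, from -0.49 to -0.14, and none passed the edgeR threshold. *Plxna4* (chromosome 6, 32144268 to 32588192, minus strand), a receptor of SEMA3A and SEMA6A, had 3167 and 3835 counts in WT against 2254 and 2540 in KO. Each KO library was below each WT library, in raw counts as in scaled levels. The level was 384 ± 12.3 CPM in WT and 274 ± 8.32 CPM in KO (SD, n = 2), which gives -0.49 on the log2 scale (standard error 0.13, 95% interval -0.79 to -0.18, edgeR adjusted p = 0.0661). *Plxna4* passed under 6 of the 11 alternatives with all libraries, DESeq2 (adjusted p = 0.0126) and limma-voom (adjusted p = 0.0451) among them. Without WT replicate 1 the edgeR adjusted p was 0.00328 for *Plxna4* and 0.00815 for *Plxnb1*, and without WT replicate 2 it was 0.000520 and 0.000731, whereas neither passed without a KO library.

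*Plxna2* (chromosome 1), which binds SEMA6A, had 5118 and 6437 counts in WT against 4132 and 5132 in KO, on the longest exonic sequence of the family. Scaled to the library, the values were 635 and 631 CPM in WT and 491 and 565 CPM in KO, and the groups did not overlap. The log2 fold change was -0.26 (95% interval -0.59 to 0.07, edgeR adjusted p = 0.319). *Plxna3* (chromosome X), a receptor of SEMA3F together with neuropilin-2, had 3059 and 4290 counts in WT against 2683 and 3296 in KO. Its scaled levels of 380 and 420 CPM in WT and 319 and 363 CPM in KO did not overlap, and the log2 fold change was -0.23 (95% interval -0.56 to 0.10, edgeR adjusted p = 0.379). *Plxna1* (chromosome 6), a receptor of class 3 semaphorins and SEMA6D, had 2737 and 3931 counts in WT against 2628 and 3130 in KO. Its levels of 340 and 385 CPM in WT and 312 and 345 CPM in KO overlapped, and the log2 fold change was -0.14 (95% interval -0.47 to 0.19, edgeR adjusted p = 0.597). The antisense gene *Gm26811* overlaps 10.7% of the exonic bases of *Plxna1*. How reads in this overlap were counted is not known, because the strand setting of the counting is not given in the sources used here.

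The calls of *Plxna1*, *Plxna2* and *Plxna3* turned on 1 processing choice. All 9 plexins had longer exonic sequence than the median tested gene, from 6493 to 17174 bases against 4020, and higher GC content, from 49.3% to 60.8% against 49.0%. When the trends of each library with length and GC were removed, all 4 class A plexins passed as lower, beside 5.01% of all tested genes, and *Plxnb3* alone passed as higher, beside 11.2%. The corrected log2 fold changes were -0.32 for *Plxna1*, -0.33 for *Plxna2*, -0.36 for *Plxna3* and -0.59 for *Plxna4*, with edgeR adjusted p of 0.0281, 0.0379, 0.0172 and 0.000928. For *Plxnb1* the corrected value was smaller, at 0.28 (edgeR adjusted p = 0.0576).

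**Figure D2:**
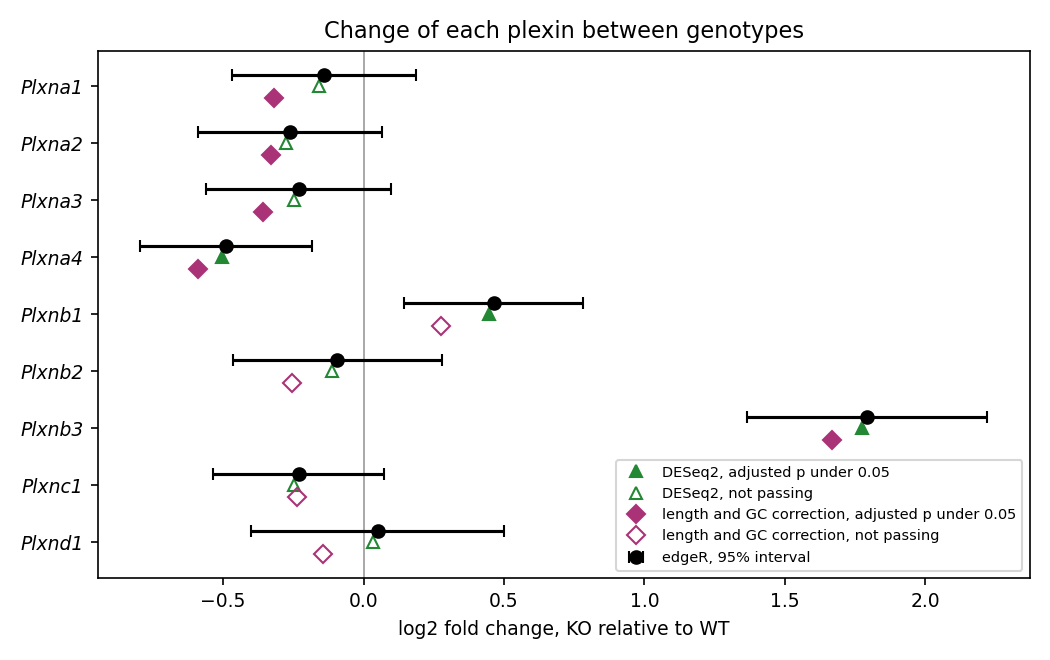
Log2 fold change of each plexin, KO relative to WT (horizontal axis), from edgeR with 95% intervals (black circles), from DESeq2 (triangles) and from edgeR after the length and GC correction (diamonds), with symbols of the last 2 filled where the adjusted p was under 0.05. The edgeR intervals of *Plxnb3*, *Plxnb1* and *Plxna4* do not cross 0, although their adjusted p was 0.000643, 0.0917 and 0.0661.

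The single members of classes C and D did not pass the test, and their intervals reached both sides of 0. *Plxnc1* (chromosome 10), the receptor of SEMA7A, had 3483 and 4171 counts in WT against 2977 and 3293 in KO. Its scaled levels of 432 and 409 CPM in WT and 354 and 363 CPM in KO did not overlap, and the log2 fold change was -0.23 (95% interval -0.54 to 0.07, edgeR adjusted p = 0.342). *Plxnd1* (chromosome 6), the receptor of SEMA3E that is best known from blood vessels, had 200 and 332 counts in WT against 257 and 263 in KO. Both KO values fell between those of WT, and the log2 fold change was 0.05 (95% interval -0.40 to 0.50, edgeR adjusted p = 0.913). Its sign turned to negative, at -0.14, with the length and GC correction. Over the family, the scaled levels of 4 plexins were lower in both KO libraries than in both WT libraries, beside 25.2% of all tested genes, and those of 2 were higher, beside 28.3%.

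Shares of the plexin transcripts, computed from RPKM within each library, do not depend on library size. The 9 plexins summed to 295 ± 12.8 RPKM in WT and 281 ± 20.8 RPKM in KO (SD, n = 2), and the libraries overlapped. Class A took 52.7% and 52.4% of this sum in WT and 46.0% and 46.2% in KO. Class B took 28.0% and 29.99% in WT and 36.5% and 37.7% in KO, so that neither class overlapped between groups. Most of the class B difference lay in *Plxnb1*, which took 13.8% and 13.6% in WT and 19.7% and 19.8% in KO. *Plxnb3* took 0.823% and 0.944% in WT and 3.14% and 3.30% in KO, whereas *Plxnb2* took 13.4% and 15.4% in WT and 13.7% and 14.6% in KO. Class C took 18.1% and 16.1% in WT and 15.9% and 14.7% in KO, and class D 1.19% and 1.47% in WT and 1.57% and 1.34% in KO. A ratio chosen after the values were seen, that of *Plxnb1* to *Plxna4* per length, was 1.41 and 1.55 in WT and 2.77 and 2.96 in KO. Within class B, the ratio of *Plxnb3* to *Plxnb1* was 0.0598 and 0.0692 in WT and 0.159 and 0.166 in KO. No test was run on the shares and ratios, since an exact permutation test of 2 libraries against 2 cannot give a two-sided p below 0.333.

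**Figure D3:**
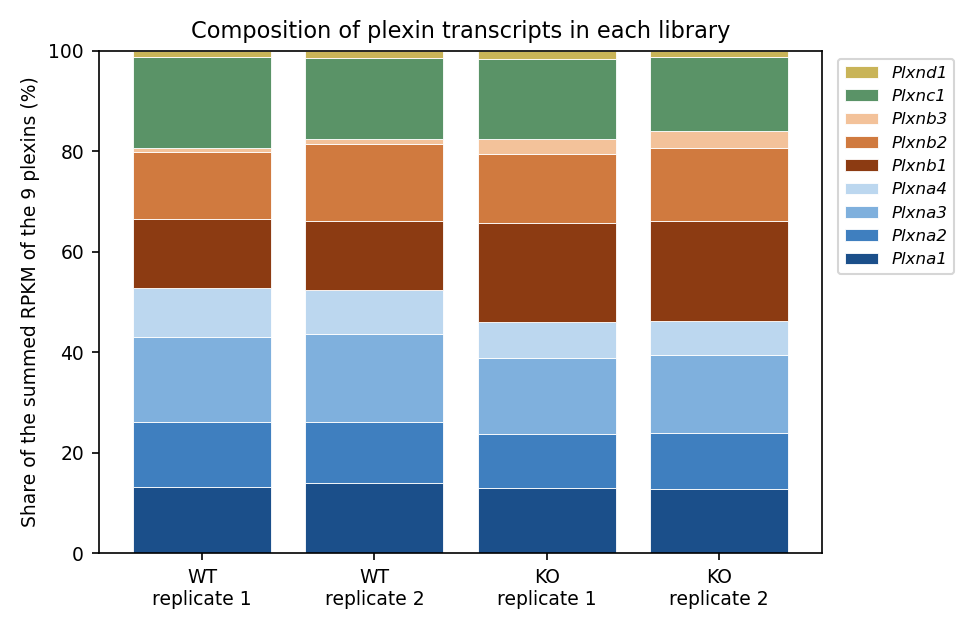
Share of each plexin in the summed RPKM of the 9 plexins (vertical axis, percent, from 0 to 100) in each of the 4 libraries. The class A genes (blue) took about the same share in libraries of the same genotype, 52.7% and 52.4% in WT and 46.0% and 46.2% in KO, and the share of *Plxnb1* (dark brown) was larger in both KO libraries.

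The other genes of plexin signalling were described by list, 73 in all, of which 69 passed the expression filter. Among these, edgeR called 7 higher and 1 lower in KO, beside 7.33% and 0.57% of all tested genes, and these shares are the background for each list that follows. Their median log2 fold change was -0.20 against -0.03 over all tested genes. Of the 6 class 3 semaphorins tested, the ligands of neuropilin and class A complexes, 1 was lower and none higher, beside 0.57% and 7.33% of all tested genes. *Sema3c* had 448 and 430 counts in WT against 255 and 226 in KO, with no overlap (log2 fold change -0.82, edgeR adjusted p = 0.0442). *Sema3f*, the ligand with the highest level in this list, was at 7.67 ± 1.63 RPKM in WT and 5.30 ± 0.364 RPKM in KO (SD, n = 2, edgeR adjusted p = 0.157). With the length and GC correction *Sema3f* passed as lower (edgeR adjusted p = 0.0161). That correction called 2 class 3 semaphorins lower, beside 5.01% of all tested genes.

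Of the 6 class 4 semaphorins, the ligands of class B plexins, 3 were higher in KO, beside 7.33% of all tested genes, and none was lower, beside 0.57%. *Sema4a* had 497 and 737 counts in WT against 859 and 1070 in KO, and *Sema4b* had 499 and 707 in WT and 851 and 1042 in KO. *Sema4d*, which encodes the ligand of *Plxnb1*, had 255 and 254 counts in WT against 395 and 464 in KO. In all 3 genes both KO libraries exceeded both WT libraries, with log2 fold changes of 0.72, 0.72 and 0.80 (edgeR adjusted p = 0.0314, 0.0255 and 0.0334). *Sema4c*, a ligand of *Plxnb2* and the class 4 gene with the highest level averaged over the 4 libraries, though below *Sema4a* and *Sema4b* in KO, was at 18.1 ± 0.0790 RPKM in WT and 17.3 ± 2.13 RPKM in KO (SD, n = 2, edgeR adjusted p = 0.863), and its groups overlapped.

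Of the 7 class 5, 6 and 7 semaphorins, edgeR and DESeq2 called 0, and 1 had an unadjusted p under 0.05, beside 22.7% of all tested genes. *Sema5a*, the ligand of *Plxnb3*, named here after its values were seen, had 421 and 428 counts in WT against 268 and 353 in KO (log2 fold change -0.41, edgeR adjusted p = 0.237). *Sema7a*, the ligand of *Plxnc1* and likewise named afterwards, had 211 and 249 counts in WT against 193 and 274 in KO. *Sema6c* had the highest level of this list, 21.3 ± 1.59 RPKM in WT and 20.5 ± 3.22 RPKM in KO (SD, n = 2, edgeR adjusted p = 0.886).

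Of 12 co-receptors, 1 was higher, a share near the 7.33% of all tested genes. *Erbb2*, a receptor tyrosine kinase that can associate with class B plexins, had 12 and 22 counts in WT against 48 and 99 in KO, and so was low in every library (log2 fold change 2.17, edgeR adjusted p = 0.0243). *L1cam*, a cell adhesion molecule of neuropilin-1 complexes, had the highest level, 54.9 ± 4.11 RPKM in WT and 41.3 ± 3.67 RPKM in KO (SD, n = 2, edgeR adjusted p = 0.136). With the length and GC correction *L1cam* passed as lower (edgeR adjusted p = 0.0033). That correction called 2 co-receptors lower, beside 5.01% of all tested genes. Of 14 small GTPases that bind plexins or serve as their substrates, edgeR called 0, with 3 at an unadjusted p under 0.05, beside 22.7% of all tested genes. DESeq2 called 1 higher, *Mras* (log2 fold change 0.55 by edgeR, edgeR adjusted p = 0.0556), beside 5.84% of the genes it tested. The length and GC correction called 1 higher and 1 lower, beside 11.2% and 5.01% of all tested genes. The replicate block called 2 higher and 1 lower, beside 1625 and 619 of all tested genes. *Rnd3*, a GTPase that binds the plexin cytoplasmic part, led this list at 50.1 ± 5.54 RPKM in WT and 40.3 ± 3.73 RPKM in KO (SD, n = 2, edgeR adjusted p = 0.258).

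Of 24 further effectors, edgeR called 3 higher and 0 lower, beside 7.33% and 0.57% of all tested genes. At an unadjusted p under 0.05 there were 7, beside 22.7% of all tested genes. DESeq2 called 1 effector lower, beside 1.25% of the genes it tested, and the length and GC correction called 7 lower, beside 5.01% of all tested genes. *Mical2*, of a family of actin-oxidising enzymes that act below class A plexins, had 81 and 108 counts in WT against 1221 and 1314 in KO. This was the largest log2 fold change in the plexin signalling lists (3.81, edgeR adjusted p = 6.33e-06). *Farp1*, a FERM-domain exchange factor, had 1050 and 1296 counts in WT against 2034 and 2411 in KO (log2 fold change 0.98, edgeR adjusted p = 0.00332). *Fes*, a tyrosine kinase, had 3 and 4 counts in WT against 24 and 35 in KO (log2 fold change 3.09, edgeR adjusted p = 0.0181), so that its WT level is close to the floor. *Dpysl3*, a collapsin response mediator with the highest level, was at 327 ± 9.97 RPKM in WT and 248 ± 13.97 RPKM in KO (SD, n = 2), which did not pass by edgeR (adjusted p = 0.139) and passed as lower by DESeq2 (adjusted p = 0.0424) and with the length and GC correction (edgeR adjusted p = 0.00720). Without KO replicate 2, *Sema3c*, *Sema4a*, *Sema4b*, *Sema4d*, *Erbb2* and *Fes* no longer passed (edgeR adjusted p = 0.383, 0.349, 0.315, 0.264, 0.2996 and 0.184), and without KO replicate 1 the same held for all of these but *Erbb2* (0.130, 0.141, 0.142, 0.162 and 0.0907 for the other 5). *Sema3c* and *Erbb2* also missed the threshold with limma-voom (adjusted p = 0.0525 and 0.0522), and *Sema3c* at a minimum of 10 counts in every library (edgeR adjusted p = 0.0568).

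**Figure D4:**
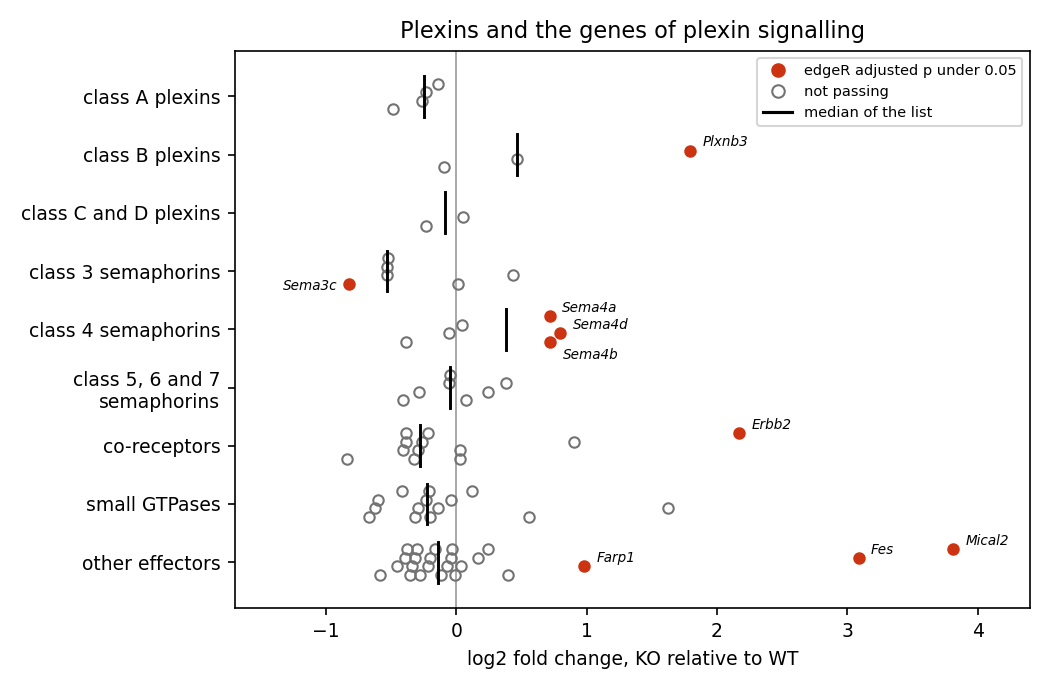
Log2 fold change, KO relative to WT (horizontal axis), of every tested plexin and gene of plexin signalling, by list, with filled points for an edgeR adjusted p under 0.05 and a black line for the median of each list. The called genes are *Plxnb3*, *Sema3c*, *Sema4a*, *Sema4b*, *Sema4d*, *Erbb2*, *Farp1*, *Fes* and *Mical2*, and only *Sema3c* lies left of 0.

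Markers of several other cell types also differed between the groups. All 10 astrocyte markers were higher in KO, beside 7.33% of all tested genes, with a summed level of 31.1 and 35.02 RPKM in WT and 502 and 485 RPKM in KO. The glutamate transporter gene *Slc1a2* had the highest level averaged over the 4 libraries, with *Slc1a3* above it in WT, and the defining marker *Gfap* was at 0 in both WT libraries and had 149 and 198 counts in KO. Of 10 markers of mature oligodendrocytes 9 were higher, from 31.5 and 36.6 RPKM in sum in WT to 130 and 124 RPKM in KO. *Cnp* had the highest level averaged over the 4 libraries and in WT, and *Opalin* was at 0 in both WT libraries against 13 and 27 counts in KO. Of 7 mural markers, *Pdgfrb*, *Rgs5*, *Kcnj8*, *Abcc9* and *Vtn* were higher (sum 33.4 and 36.5 RPKM in WT, 104 and 109 RPKM in KO), with *Cspg4*, the gene of highest level averaged over the 4 libraries, though below *Vtn* in KO, not called.

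Oligodendrocyte precursor markers summed to 258 and 285 RPKM in WT and 352 and 377 RPKM in KO, with *Olig1* leading. Of the 6, edgeR called *Olig2* higher. For this and the edgeR calls below, the shares over all tested genes are 7.33% higher and 0.57% lower. DESeq2 called 2, beside 5.84% of the genes it tested, and the length and GC correction called 4, beside 11.2% of all tested genes. The replicate block also called 4, beside 1625 of 16832 genes. Radial glia markers summed to 428 and 407 RPKM in WT and 526 and 482 RPKM in KO, with *Fabp7* leading and *Hes1* and *Sox9* called higher of 8 by edgeR. Microglial markers were low, 11.02 to 11.6 RPKM in sum in WT and 22.7 RPKM in both KO libraries. *C1qa* led in the average over the 4 libraries, though below *C1qb* in KO. Of 7, edgeR called *Csf1r* higher (adjusted p = 0.0474), whereas DESeq2 (adjusted p = 0.0553 for *Csf1r*) and limma-voom called none. The replicate block and the length and GC correction called 3 higher each, with the shares over all genes given above. Endothelial markers, led by *Cldn5*, lay between 2.94 and 3.81 RPKM in sum, with 0 of 6 called by edgeR and by DESeq2 and 4 at an unadjusted p under 0.05, beside 22.7% of all tested genes. Neuronal markers, led by *Tubb3*, summed to 1237 and 1395 RPKM in WT and 931 and 947 RPKM in KO. Of 10, edgeR called *Elavl4*, *Stmn2* and *Syt1* lower, and DESeq2 called 6 lower, beside 1.25% of the genes it tested. GABAergic markers, led by *Dlx1*, summed to 296 and 268 RPKM in WT and 224 and 249 RPKM in KO, with 0 of 7 called by edgeR and by DESeq2 and 2 at an unadjusted p under 0.05, beside 22.7% of all tested genes. The markers named here, apart from those leading a list over the 4 libraries and those at 0 in WT, were named after their values were seen. *Plxnb3* was higher in the same libraries as the oligodendrocyte and astrocyte sums, and also as the mural, microglial, precursor and radial glia sums. The libraries with the lower *Plxna4* counts had the lower sums of neuronal and GABAergic markers. With 2 libraries per genotype, any genes that differ between the groups in the same direction share libraries in this way. A link between the markers and the plexins was not tested.

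**Figure D5:**
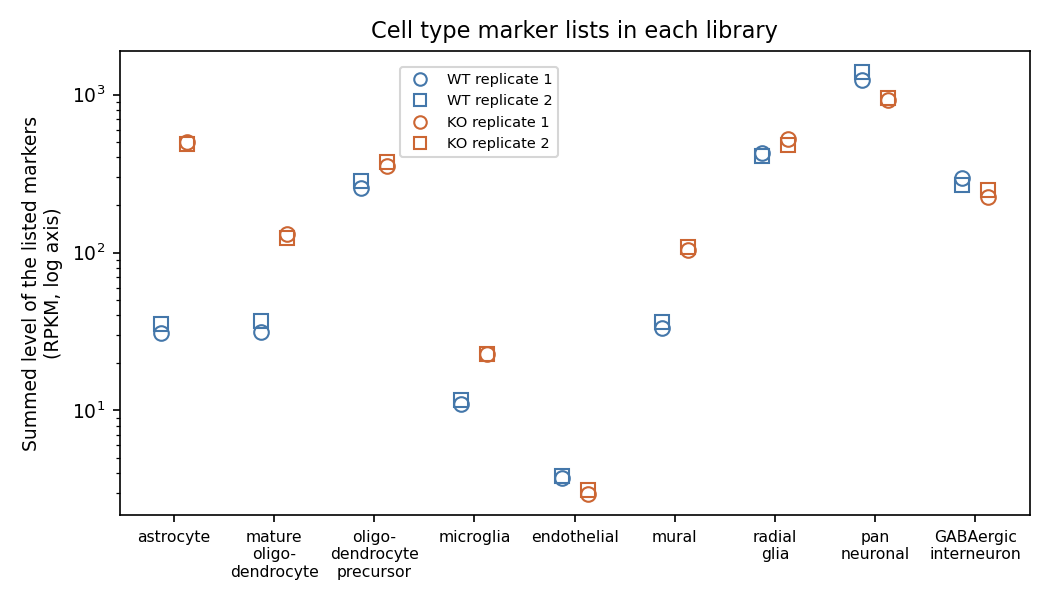
Summed RPKM of each cell type marker list (vertical axis, log scale) in the 2 WT and 2 KO libraries. The astrocyte markers lie at 31.1 and 35.02 RPKM in WT and 502 and 485 RPKM in KO, whereas the neuronal markers lie at 1237 and 1395 RPKM in WT and 931 and 947 RPKM in KO.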

How the data were processed

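RNA of 4 libraries was compared, *Dnmt1* WT and KO with 2 replicates each, grouped by the sample labels. The files that the authors deposited hold raw counts of reads for each Ensembl gene, not normalized. The submitters' processing notes name CASAVA 1.8.2, STAR 2.5.2a and featureCounts 1.5.0-p1 and the build mm10/GRCm38. The annotation release and strand setting are not given in the sources used here. Of 55573 identifiers, 55480 matched GENCODE M21 (GRCm38), which supplied symbols, positions, lengths and GC content.

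Counts were filtered with edgeR's filterByExpr, scaled by TMM and compared with edgeR's quasi-likelihood test with genotype as the only term (edgeR 4.0.16, limma 3.58.1, R 4.3.3). Benjamini-Hochberg adjustment ran over 16832 genes and genes under 0.05 were called. Standard errors were derived from the test statistic. The counts of same-genotype libraries exceeded sampling noise in their differences (chi-square divided by its degrees of freedom 57.2 in WT and 4.28 in KO). Alternatives were DESeq2 1.42.0, limma-voom, other scalings, filters and thresholds, no mitochondrial genes, the replicate number as a block, a loess correction for length and GC content, and each library left out. The procedures were tested on simulated counts. Named genes are all plexins, *Dnmt1*, in each pathway list every called gene (at most 6) and the one of highest mean RPKM, and in each marker list the one of highest mean RPKM and those at 0 in a genotype. The members and lists were chosen with earlier results of these data known.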

Additional observations from a re-analysis of the deposited data

How the results depend on the processing

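*Plxnb3* was higher and passed the threshold in every fit that was run. Over all alternatives, single plexins kept their direction and call in 110 comparisons, passed in addition in 19 and changed sign in 6. The sign changes were *Plxnb2* at 0.0084 with library size only and, without 1 library, from -0.24 to 0.061 (positive without WT replicate 2 or KO replicate 1), and *Plxnd1* from -0.13 to 0.26 (negative without WT replicate 1) and at -0.14 with the length and GC correction, alone or with the block. The cause was not tested, here as below.

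DESeq2, the fit without a filter, the replicate block and an adjusted p under 0.1 each called 2 plexins higher and 1 lower, limma-voom called 1 lower, and the length and GC correction, with or without the block, called 4 lower. Of all tested genes, 1233 were higher and 96 lower. The lower count was 244 with DESeq2, 573 without a filter, 52 at a minimum of 10 counts in every library, 619 with the replicate block and 318 at an adjusted p under 0.1. The counts were 1882 higher and 843 lower with the correction, 2080 and 1132 with the correction and block together, and 724 and 16 at an adjusted p under 0.01. Pathway genes called lower, 1 in the reported fit, were 2 with DESeq2, 0 at a minimum of 10 counts, 3 with the replicate block and 13 with the correction. Marker genes called lower, 3 as reported, were 6, 5 and 7 with DESeq2, the block and the correction. With the length of the longest transcript, class A held 53.7% in WT and 47.3% in KO, and 5 plexins kept their place in the WT order.

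Leaving out 1 library, whose partner is then assumed to vary like the other genotype's pair, gave 706 to 2514 genes higher and 20 to 2144 lower, both upper ends without a WT library and both lower ends without KO replicate 1. It gave 2 to 11 pathway genes higher and 0 to 16 lower, 0 to 9 marker genes lower, and 1 to 2 plexins higher and 0 to 1 lower. Without WT replicate 2, 5 plexins kept their place in the WT order. Libraries with the same number share only that number. Their deviations correlated at 0.184 across genes, and under the replicate block *Plxna4* and *Plxnb1* passed at an edgeR adjusted p of 0.0267 and 0.0414. Depth limits *Plxnb3* and *Plxnd1* more than the other plexins, since both had at most 332 counts in a WT library.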
